A study of Homo sapiens with 6 samples.

Results

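The Notch receptors, their ligands and their best known targets were described here by 10 genes. They were chosen by name, with earlier results of these data known. They were the receptors NOTCH1, NOTCH2, NOTCH3 and NOTCH4, the ligands JAG1, JAG2, DLL1 and DLL4, and the targets HES1 and HEY1. All 10 were among the 23617 gene symbols listed for MDA-MB-231 cells, and 2 of them, DLL4 and HEY1, were among the 1854 symbols listed for HMLER cells. Expression was measured by RNA-seq of polyadenylated RNA in 6 libraries: 1 untreated and 1 DAC-treated library of MDA-MB-231, and 2 untreated and 2 DAC-treated libraries of HMLER. DAC is decitabine (5-aza-2′-deoxycytidine), a cytidine analogue that is built into replicating DNA and traps DNA methyltransferases, so that CpG methylation is lost as cells divide. It was given daily at 10 µM, and RNA was collected at 72 h. The untreated cultures received no DAC, and the labels name no other agent or genotype that separated the conditions within a line.

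MDA-MB-231 is a line of mesenchymal-type, hormone receptor-negative breast cancer cells, and HMLER is a line of human mammary epithelial cells immortalised and transformed in culture by introduced genes. Each library was prepared from a pool of independent RNA extractions. MDA-MB-231 thus had 1 value per condition, and the HMLER values had been merged by the authors into 1 value per condition, so no comparison below has a replicate check and no p-value is given. The cell line field of the untreated MDA-MB-231 library reads MDA-MB-232, and its title was used. Levels are in FPKM, a fragment count divided by transcript length and library size, which can be compared between genes. All 5 mesenchymal-type markers (VIM, CAV1, AXL, CD44 and MSN) were at 1 FPKM or more in both MDA-MB-231 libraries. Their summed level, by the largest transcript of each, was 3983 FPKM in untreated cells and 1638 FPKM after DAC. Most of it was VIM, at 3066 and 1134 FPKM. Of the 6 luminal markers, EPCAM alone reached 1 FPKM in both libraries, and ESR1, PGR and CDH1 were listed at 0 in untreated cells. All 6 were higher after DAC, and GATA3 (0.0840 to 1.71 FPKM) and ERBB3 (0.381 to 1.73 FPKM) reached 1 FPKM there. HMLER values cover only transcripts that were higher after DAC, so its marker levels were not analysed here.

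Notch signalling passes between touching cells. A Jagged or Delta-like ligand on one cell pulls on a Notch receptor of its neighbour, ADAM proteases and then gamma-secretase cut the receptor, and the freed intracellular domain enters the nucleus and joins the DNA-binding protein RBPJ and a Mastermind coactivator. The complex turns on a small set of genes, among them the HES and HEY repressors, and in the mammary gland the pathway is known for its part in luminal fate and, when overactive, in breast cancer.

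NOTCH2 had the highest level of the family in MDA-MB-231. NOTCH1 and NOTCH2 were somewhat lower after DAC, NOTCH3 was higher, and NOTCH4 was nearly without reads. The ligands and HEY1 were low in untreated cells and higher in the DAC library, whereas HES1 had almost the same level in both. In bulk RNA, a change in the share of cells that express a gene and a change in RNA per cell cannot be told apart. Of the 10 genes, 8 reached 1 FPKM in at least 1 library, and 4 of these were more than 2-fold higher after DAC (NOTCH3, JAG1, DLL4 and HEY1). Among all 12396 symbols that reached 1 FPKM in at least 1 library, 11.5% were more than 2-fold higher. None of the 8 was more than 2-fold lower, against 5.86% of all symbols. NOTCH3, JAG2, DLL4 and HEY1 passed this filter only through the DAC library, so a difference was needed for them to be kept at all, and the count is a description only. When 1 FPKM was required in both libraries, 4 of the 10 genes were left (NOTCH1, NOTCH2, JAG1 and HES1) and JAG1 was the 1 that was more than 2-fold higher, against 4.61% of 11057 symbols. With no filter, 6 of the 10 were more than 2-fold higher, against 22.8% of all 23617 symbols; DLL1 was added by 58 reads and NOTCH4 by 1 read.

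**Figure D1:**
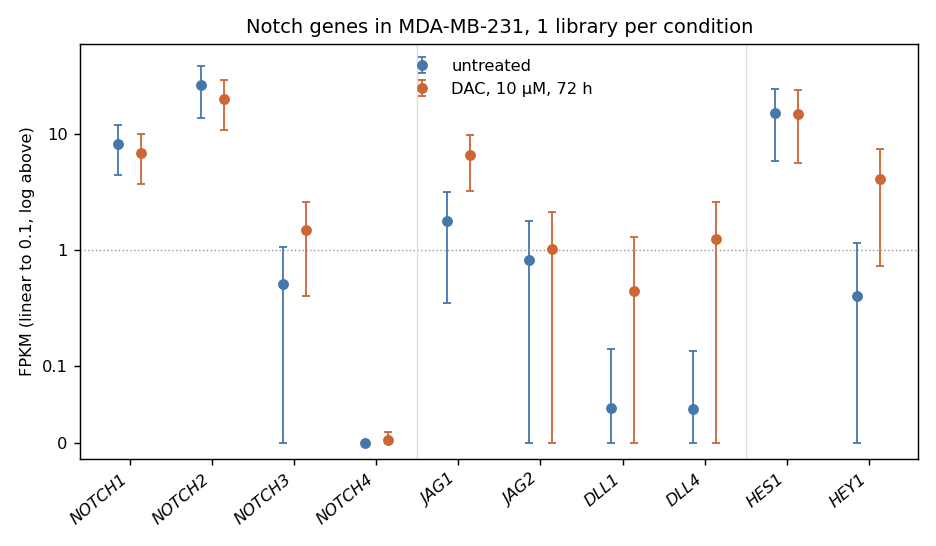
Level of the 10 Notch genes in MDA-MB-231 (vertical axis, FPKM, linear up to 0.1 and logarithmic above), with 1 library per condition, the authors' Cuffdiff bounds as bars and a dotted line at 1 FPKM. JAG1 is the gene whose bounds do not overlap, and NOTCH1, NOTCH2 and HES1 lie side by side in both libraries.

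The depth behind each value could be recovered. Among long transcripts with few reads, all FPKM values (797 from untreated and 850 from DAC-treated cells) came out within 0.1 of a whole number of reads once divided by the FPKM of a single read. On this scale the libraries held about 42600000 and 42400000 reads. The Cuffdiff bounds in brackets after a level are the lower and upper limits that the authors' software gave for that library. Where an interval follows a ratio below, it is a 95% exact (Clopper-Pearson) interval from these inferred reads. None is given for other pathway genes with several transcripts, or for HMLER, whose depth is unknown. The interval covers counting error only, not the variation between cultures. Over the 11057 symbols with at least 1 FPKM on both sides, the median DAC/untreated ratio was 0.908 (log2 −0.14), against which the ratios may be read.

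NOTCH1, the receptor in which the pathway's activating mutations of leukaemia are found, lies at chr9:139388896-139440238 on the minus strand (hg19, as in the deposited files). It was measured at 8.21 FPKM in untreated cells (Cuffdiff bounds 4.48 to 11.9, 3184 reads) and at 6.92 FPKM after DAC (3.72 to 10.1, 2666 reads). The DAC library was lower, with a ratio of 0.843 (0.800 to 0.887), but the bounds overlapped and the ratio was 0.928 once divided by the median ratio. A microRNA gene, MIR4673, lies within the same locus. NOTCH2, a close relative with a broad adult expression, lies at chr1:120454176-120612317 on the minus strand and had the highest level of the family. Its transcript NM_024408 went from 26.4 FPKM (13.8 to 39.0) to 20.2 FPKM (10.8 to 29.5), with 12685 and 9646 reads over its 2 transcripts and a ratio of 0.765 (0.745 to 0.786). The bounds overlapped here too, and the ratio was 0.842 once divided by the median ratio. Reads of NOTCH2 may be shared with NOTCH2NL, a partial copy of the gene listed at 3.20 FPKM before and 2.84 FPKM after DAC, so the split between them is uncertain.

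NOTCH3, the receptor best known from vascular smooth muscle, lies at chr19:15270444-15311792 on the minus strand. It was at 0.504 FPKM in untreated cells (0 to 1.06, 169 reads) and 1.50 FPKM after DAC (0.403 to 2.60, 500 reads). It was the 1 receptor that was more than 2-fold higher, by 2.98-fold (2.50 to 3.57), although the Cuffdiff bounds of the libraries overlapped. With 1 FPKM added to both values, as for every log2 difference given here, the log2 difference was 0.73, under the 2-fold mark. NOTCH4, a receptor of endothelial cells at chr6:32158543-32191844 on the minus strand, was essentially without reads. It was listed at 0 in untreated cells, which allows up to 3 reads, and at 0.00361 FPKM after DAC, which was 1 read assigned to a copy of the locus on an alternative haplotype. No fold change is given for it.

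The upstream sequence of NOTCH1 is shown because it is the most abundant receptor with no near-identical copy, and it is set beside those of JAG1, DLL4 and HES1 below. It is the 250 bases before the RefSeq start at chr9:136546049-136546298 on the minus strand (GRCh38.p14, a later build than that of the files), read 5′ to 3′ with each CpG, the dinucleotide that DNA methyltransferases act on, in capitals.
NOTCH1: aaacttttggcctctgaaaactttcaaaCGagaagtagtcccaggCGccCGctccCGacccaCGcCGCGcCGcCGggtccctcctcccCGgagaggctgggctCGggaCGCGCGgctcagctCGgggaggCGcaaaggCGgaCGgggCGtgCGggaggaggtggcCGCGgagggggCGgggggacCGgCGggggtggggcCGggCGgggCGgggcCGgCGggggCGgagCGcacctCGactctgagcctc
The window holds 33 CpG, at 0.941 of the number expected from its C and G content.

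JAG1, the ligand most often linked to Notch activity in basal-like breast cancer, lies at chr20:10618332-10654694 on the minus strand. It was at 1.76 FPKM in untreated cells (0.351 to 3.18, 435 reads) and at 6.56 FPKM after DAC (3.23 to 9.90, 1608 reads). It was the 1 member whose Cuffdiff bounds in the libraries did not overlap, though only narrowly (upper bound 3.18 untreated, lower bound 3.23 after DAC). Being both over 2-fold higher and apart in bounds was seen for 1.06% of the 12396 symbols. The ratio was 3.72 (3.34 to 4.15), above that of 93.9% of these symbols, and the log2 difference was 1.45. The 250 bases before its start are shown because JAG1 was the 1 member with these bounds apart (chr20:10674000-10674249, minus strand, GRCh38.p14, CpG in capitals).
JAG1: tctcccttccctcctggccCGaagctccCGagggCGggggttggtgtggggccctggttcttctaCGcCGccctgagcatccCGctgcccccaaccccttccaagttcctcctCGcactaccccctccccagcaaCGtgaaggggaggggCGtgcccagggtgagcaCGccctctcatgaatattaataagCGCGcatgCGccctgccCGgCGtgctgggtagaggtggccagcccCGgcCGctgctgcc
This window holds 17 CpG, at 0.592 of expectation.

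JAG2, the other Jagged ligand, lies at chr14:105607318-105635161 on the minus strand and has 2 listed transcripts. The longer, NM_002226, differed little, with 0.823 FPKM in untreated cells (0 to 1.78) and 1.01 FPKM after DAC (0 to 2.13). The shorter, NM_145159, was listed at 0.00158 FPKM in untreated cells (0 to 0.0397) and at 1.004 FPKM after DAC (0 to 2.11). The 2 transcripts share a locus and are close in length (5835 and 5721 bases). The division of reads between them is therefore an estimate, and a difference between the transcripts was not tested. Summed over both, JAG2 went from 0.825 to 2.02 FPKM, and its 198 and 476 reads gave a ratio of 2.42 (2.05 to 2.87). Counted by its larger transcript JAG2 was 1.23-fold higher and not among the 4 genes above. Counting by sums would make them 5, and by sums 1350 of all symbols were more than 2-fold higher.

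The Delta-like ligands were the least expressed of the detected members in untreated cells. DLL1, a ligand of mammary stem-like cells, lies at chr6:170591294-170599697 on the minus strand and was at 0.0453 FPKM in untreated cells (0 to 0.140) and 0.441 FPKM after DAC (0 to 1.29). It stayed under 1 FPKM in both libraries and was not counted, but its 6 and 58 reads gave a ratio of 9.73 (4.21 to 27.6). DLL4, the ligand that guides the tip cells of sprouting vessels, lies at chr15:41221531-41231258 on the plus strand. It was at 0.0438 FPKM in untreated cells (0 to 0.135, 6 reads) and 1.24 FPKM after DAC (0 to 2.61, 169 reads). Its ratio of 28.3 (12.8 to 78.3) was the highest of the members, above that of 97.6% of the 12396 symbols. With 6 reads in the untreated library the interval is wide, and the Cuffdiff bounds of the libraries overlapped. Among the 503 symbols with a mean of 1 FPKM or less over the libraries, as for DLL4 and JAG2, 71.8% were more than 2-fold higher, compared with 16.2% of the 5355 symbols over 1 and up to 10 FPKM, as for NOTCH3, JAG1 and HEY1, and 3.07% of the 6538 symbols above that. The 503 had to reach 1 FPKM in a library despite that mean, so the filter itself favours large ratios among them, in either direction. Of these 503, 9.74% were more than 2-fold lower.

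As DLL4 and NOTCH4 are endothelial genes, 5 endothelial markers (PECAM1, CDH5, VWF, KDR and TEK) were measured beside them. They lay between 0.00515 and 0.385 FPKM in untreated cells and between 0.0657 and 1.001 FPKM after DAC, with a sum of 0.487 and 1.66 FPKM. Their part in the DLL4 difference was not tested. The 250 bases before the start of DLL4 are shown for its ratio (chr15:40929090-40929339, plus strand, GRCh38.p14, CpG in capitals).
DLL4: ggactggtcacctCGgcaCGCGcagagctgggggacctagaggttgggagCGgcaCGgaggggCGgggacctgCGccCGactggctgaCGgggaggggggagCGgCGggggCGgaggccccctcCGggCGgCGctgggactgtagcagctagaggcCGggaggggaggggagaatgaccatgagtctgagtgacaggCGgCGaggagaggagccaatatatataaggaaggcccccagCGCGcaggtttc
The window holds 20 CpG, at 0.725 of expectation.

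**Figure D2:**
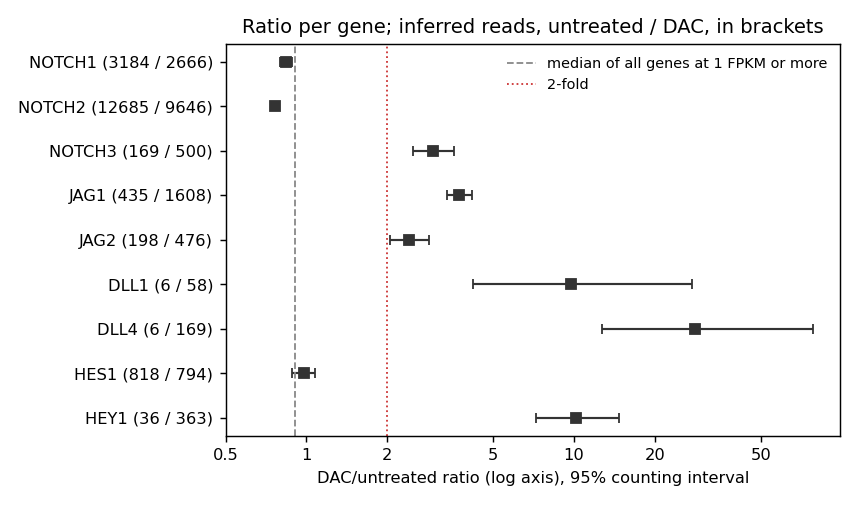
DAC/untreated ratio of 9 of the Notch genes in MDA-MB-231 (logarithmic axis) with the 95% counting interval and the inferred reads of each library in brackets, summed over transcripts where a gene has several; NOTCH4, with 0 and 1 read, is left out. The dashed line is the median ratio of the 11057 symbols that reached 1 FPKM on both sides (0.908) and the dotted line is 2-fold; JAG1, NOTCH3, JAG2, DLL1, DLL4 and HEY1 lie to the right of it.

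HES1, the basic helix-loop-helix repressor used most often as a readout of Notch activity, lies at chr3:193853931-193856401 on the plus strand. It was at 15.3 FPKM in untreated cells (5.86 to 24.7, 818 reads) and 14.9 FPKM after DAC (5.65 to 24.2, 794 reads). The values were nearly equal, with a ratio of 0.977 (0.885 to 1.08). The log2 difference was −0.03, and it turned to 0.10 when the DAC values were divided by the median ratio, so no direction is given for HES1.

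The upstream sequence of HES1 is shown because HES1 is the target used most often as a readout of Notch activity (chr3:194135898-194136147, plus strand, GRCh38.p14). Here the capitals mark the letters TGGGAA, the core of the motif that RBPJ binds, searched on both strands. A binding site with other letters stays in lower case, so the marked stretches are not to be read as a pair of RBPJ sites.
HES1: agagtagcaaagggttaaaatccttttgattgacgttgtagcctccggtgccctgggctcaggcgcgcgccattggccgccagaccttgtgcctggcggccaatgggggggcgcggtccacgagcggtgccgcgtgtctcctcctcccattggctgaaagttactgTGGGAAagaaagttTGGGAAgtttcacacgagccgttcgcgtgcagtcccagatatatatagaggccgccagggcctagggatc
The motif begins 84 and 70 bases before the start of HES1. It was found in 1 of the 8 members matched to the RefSeq table and in 21.1% of the 27305 promoters of that length. The match describes letters, and no match in the other 7 windows says only that these letters are not in them.

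HEY1, a related repressor known from heart and vessel development, lies at chr8:80676245-80680098 on the minus strand and differed by far more. It was at 0.401 FPKM in untreated cells (0 to 1.14) and 4.10 FPKM after DAC (0.727 to 7.48), a ratio of 10.2 that was above that of 96.6% of the 12396 symbols. Its 36 and 363 reads gave a counting interval of 7.19 to 14.7, whereas the Cuffdiff bounds overlapped. The log2 difference of HEY1, 1.86, was the largest of the 10 genes.

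CpG content was compared over all 10 genes on hg19, in a window of 500 bases on each side of the 5′ end. The ratio of observed to expected CpG was 0.140 for NOTCH4 and between 0.604 (HES1) and 0.932 (JAG2) for the other 9 genes. JAG1 had 0.886, DLL4 0.761, HEY1 0.916, DLL1 0.917 and NOTCH3 0.717. Of the filtered members that did not pass 2-fold, NOTCH1 had 0.924, NOTCH2 0.798 and JAG2 0.932. In this window HES1, at 0.604, lay below every member that passed. The order was another in the 250 bases before the RefSeq start, where HEY1 was not matched. There HES1 had 0.831, above NOTCH3 (0.795), DLL4 (0.725) and JAG1 (0.592). In the wider window, at least 0.6 was reached by 9 of the 10 genes. It was also reached by 81.0% of the 11103 filtered symbols for which a window could be set. The median was 0.676 for the symbols more than 2-fold higher and 0.782 for the others, and DLL4, JAG1, HEY1 and NOTCH3 all lay above the first of these. Methylation itself is not analysed here.

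**Figure D3:**
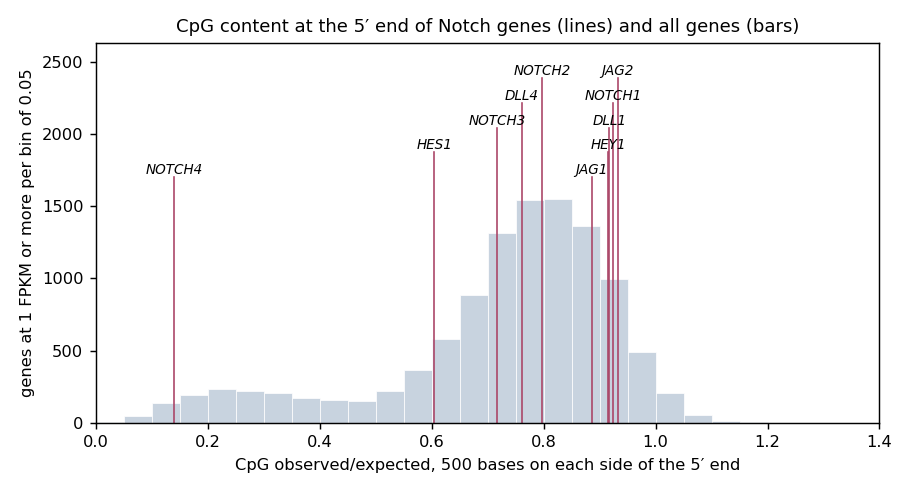
Observed/expected CpG within 500 bases on each side of the 5′ end (horizontal axis) for the 10 Notch genes (vertical lines; their heights carry no value) over the histogram of 11103 symbols at 1 FPKM or more in at least 1 library (vertical axis, symbols per bin). NOTCH4 stands at 0.140, in the low tail, and the other 9 genes lie between 0.604 and 0.932.

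By level per length, the order in untreated MDA-MB-231 cells was NOTCH2, HES1, NOTCH1, JAG1, JAG2, NOTCH3, HEY1, DLL1, DLL4 and NOTCH4. Neighbours in this order had overlapping bounds except NOTCH1 and JAG1. After DAC the order was NOTCH2, HES1, NOTCH1, JAG1, HEY1, NOTCH3, DLL4, JAG2, DLL1 and NOTCH4, with the bounds of all neighbours overlapping. NOTCH2, HES1, NOTCH1, JAG1, NOTCH3 and NOTCH4 thus kept their places, and HEY1 and DLL4 stood 2 places higher. JAG2 went from place 5 to 8 and DLL1 from place 8 to 9.

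In HMLER cells the deposited values cover only transcripts that were more than 2-fold higher after DAC and at 1 FPKM or more. A listed gene is therefore higher by selection, and an unlisted member was not analysed here. DLL4 was listed in HMLER at 0.175 FPKM without DAC and 1.30 FPKM with it, a ratio of 7.42. HEY1 was listed at 2.76 and 6.18 FPKM, a ratio of 2.24. Both were also more than 2-fold higher in MDA-MB-231, with higher ratios (28.3 and 10.2) and lower untreated levels, but the tables were normalised separately and the difference between the lines was not tested. The share of members listed in HMLER, 2 of 10, may be read beside the 7.85% of all 23617 symbols listed there, and the count of 2 genes higher in both lines beside the 3.8% of 12396 symbols. The first of these is not matched for level: 8 of the 10 members reached 1 FPKM in MDA-MB-231, against 12396 of the 23617 symbols.

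The wider pathway was described by 60 further genes, of which 51 reached 1 FPKM in at least 1 library. Of these, 7 were more than 2-fold higher after DAC (MFNG, NEURL, HES2, HES4, HES6, HES7 and NRARP) and none was more than 2-fold lower, beside 11.5% and 5.86% of all symbols. Their median log2 difference was 0.04, against −0.09 over all 12396 symbols and 0.44 over the 8 members that passed the same filter. Over all 10 members it was 0.30. MFNG, NEURL and HES2 passed the filter only through the DAC library.

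Of the 7, 5 belonged to the other HES, HEY and NRARP genes, a list grouped by family and not by measured dependence on Notch. Of its 8 genes, 6 passed the filter and 5 were more than 2-fold higher, beside 11.5% of all symbols, with a median log2 difference of 1.07 over the 6. When 1 FPKM was required in both libraries, 4 of 5 were higher, beside 4.61% of all symbols. The list was chosen with earlier results of these data known, and HES2 passed the first filter only through the DAC library. The counts are therefore a description only. HES7, an oscillating repressor of the somite clock, was at 3.43 FPKM in untreated cells and 16.6 FPKM after DAC, a ratio of 4.84 with bounds apart. NRARP, a feedback inhibitor that Notch itself turns on, was at 1.16 and 5.88 FPKM, a ratio of 5.05 (4.14 to 6.19, 120 and 602 reads). HES4 was at 2.97 and 7.68 FPKM, a ratio of 2.59. HES6, which is known to oppose HES1, was at 12.7 and 25.6 FPKM, a ratio of 2.01 that barely passed. HES2 was at 0.463 and 1.93 FPKM, a ratio of 4.16 (3.25 to 5.38, 80 and 331 reads). The ratio of HES1, 0.977, lay below the 2.01 to 4.84 of these 4 HES genes. They are named here for being past 2-fold, so that order was fixed by the choice.

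Among the genes that cut the receptor and carry its signal in the nucleus, none that passed the filter was past 2-fold by its largest transcript. This held for the 9 protease and gamma-secretase genes (median log2 difference −0.06), the 8 filtered nuclear complex genes (0.01) and the 11 filtered corepressors (−0.21). Under other settings there were 3 exceptions, named after their values were seen. TLE2, a corepressor that stayed under the filter, was at 0.0491 FPKM in untreated cells and 0.589 FPKM after DAC, a ratio of 12.0. MAML3, a Mastermind coactivator that stayed under the filter, was at 0.866 FPKM in untreated cells and 0.240 FPKM after DAC, a ratio of 0.277 (0.210 to 0.363) on 254 and 70 reads. PSEN2, a catalytic subunit of gamma-secretase, was at 15.6 and 7.80 FPKM summed over its transcripts, a ratio of 0.4997, and at a ratio of 0.774 by its largest transcript. Among the 5 glycosyltransferases, which decorate Notch and tune its choice of ligand, MFNG passed, listed at 0 in untreated cells and at 1.35 FPKM after DAC for its largest transcript, or 0.282 and 1.35 FPKM summed over transcripts. Of the 11 filtered genes of endocytosis and turnover (median 0.43), 1 passed. It was NEURL, a ubiquitin ligase that acts on Notch ligands, at 0.0742 FPKM in untreated cells and 1.59 FPKM after DAC, a ratio of 21.4 (12.3 to 40.6) on 13 and 276 reads.

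In HMLER, 14 of the 60 genes were listed, beside 7.85% of all 23617 symbols. These shares are not matched for level: 51 of the 60 genes reached 1 FPKM in MDA-MB-231, against 12396 of the 23617 symbols. Listing is also by transcript, so a gene with several transcripts can be listed through any of them. Of the 51 filtered genes, 5 were both higher in MDA-MB-231 and listed in HMLER, beside 3.8% of 12396 symbols. NRARP was listed at 0.655 and 5.22 FPKM, a ratio of 7.97, and NEURL at 0.0916 and 3.74 FPKM, a ratio of 40.8. HES2 was listed at 0.569 and 9.24 FPKM, a ratio of 16.2. HES6 was listed at 3.89 and 14.1 FPKM (3.63-fold), and HES4 by another transcript at 0.754 and 2.75 FPKM (3.64-fold). That transcript of HES4 was at 1.69 and 5.62 FPKM in MDA-MB-231. HES7 and MFNG were not analysed here in HMLER.

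Other genes listed in HMLER were not counted as higher in MDA-MB-231, either because their ratio was under 2 or because they were under the filter. DLK2, a ligand that lacks the domain with which the classical ligands bind Notch, was at 4.04 and 6.84 FPKM in MDA-MB-231 (1.69-fold) and at 5.45 and 16.7 FPKM in HMLER (3.07-fold). TLE4, a Groucho-type corepressor that HES proteins recruit, was at 1.35 and 2.39 FPKM (1.77-fold, 1.52 to 2.07) and at 1.65 and 3.86 FPKM (2.34-fold). MIB2, a ubiquitin ligase of Notch ligands, was at 3.60 and 5.47 FPKM in MDA-MB-231 by its largest transcript (1.52-fold). In HMLER MIB2 was listed by another transcript, NM_080875, at 1.17 and 5.02 FPKM (4.28-fold), and that transcript was at 0.839 and 2.78 FPKM in MDA-MB-231. DTX4, of the Deltex ubiquitin ligases, stayed under 1 FPKM in MDA-MB-231, at 0.0462 and 0.460 FPKM, but had a ratio of 9.97 (5.36 to 20.6) on 11 and 109 reads. In HMLER DTX4 was at 1.07 and 2.85 FPKM (2.65-fold). DTX2, NUMB and APH1A were lower in the DAC library of MDA-MB-231 by their largest transcripts, with ratios of 0.640, 0.863 and 0.877. They were listed in HMLER by other transcripts.

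**Figure D4:**
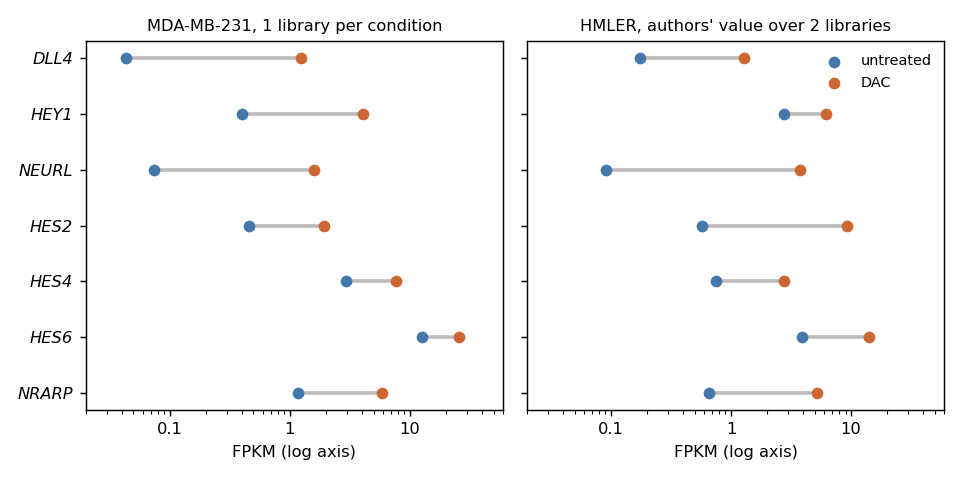
Level in untreated and DAC-treated cells (horizontal axes, FPKM, logarithmic) of the 2 Notch genes and 5 other pathway genes that were more than 2-fold higher in MDA-MB-231 and listed in HMLER; HES4 is shown by a different transcript in each line. Every gene is higher after DAC in both panels by the way it was chosen, from DLL4 (0.0438 to 1.24 FPKM in MDA-MB-231) to HES6 (12.7 to 25.6 FPKM).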

How the data were processed

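The RNA-seq of 4 groups (6 libraries; untreated and DAC-treated MDA-MB-231 and HMLER) was analysed from the deposited tables. According to the submitters' processing notes and the study's methods, reads were aligned to hg19 with TopHat2 and quantified with Cuffdiff (versions are not given in the sources used here). The deposited values are FPKM per RefSeq transcript, computed by the authors per condition, with Cuffdiff bounds and transcript length for MDA-MB-231 (43497 transcripts) and merged over libraries for HMLER (2009 transcripts, lowest ratio 2.00 and lowest DAC value 1.00 FPKM). The authors' own fold changes, log2 fold changes, test statistics, p-values and q-values were not used.

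Each symbol was represented by its transcript of highest FPKM added over both conditions. It passed the filter with 1 FPKM or more in at least 1 library. Calls were ratios above 2 or under 0.5 with no pseudocount, and log2 differences used a pseudocount of 1 FPKM. Reads were inferred as FPKM times effective length (length minus 205 bases) over the worth of 1 read (0.02345 and 0.0236 FPKM at 1 kb), summed over transcripts where a symbol has several, a choice made after seeing the data. Scripts used Python 3.11.15, pandas 2.3.3, numpy 2.4.6 and scipy 1.17.1 and were tested on simulated data. Depth in HMLER is unknown. Promoters are from RefSeq (GRCh38.p14) and matched 8 of the 10 genes, all but DLL1 and HEY1. CpG windows used the locus end in the deposited table, or the GENCODE end where a locus holds several genes.

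All 10 members were named. Of the other pathway genes, those past 2-fold in MDA-MB-231 or listed in HMLER were named, at most 14 of 16, by size of log2 difference. Members and lists were chosen with earlier results of these data known. Marker lists covered mesenchymal-type, luminal, endothelial and haematopoietic genes. The 3 haematopoietic markers summed to 0.0774 and 0.686 FPKM in MDA-MB-231, and the 6 luminal ones to 8.37 and 13.5 FPKM. Alternatives changed the filter, pseudocount, scaling, transcript choice and status.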

Additional observations from a re-analysis of the deposited data

Results flagged for a closer look

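Single transcripts of APH1A and NUMB differed in opposite directions in the cell lines. APH1A encodes a gamma-secretase subunit, and its transcript NM_001243771 went in MDA-MB-231 from 3.89 FPKM without DAC to 2.80 FPKM with it, a ratio of 0.720. In HMLER it was listed at 1.58 and 6.26 FPKM, a ratio of 3.97. NUMB encodes an endocytic adaptor that lowers Notch at the membrane, and its transcript NM_001005743 was at 4.58 and 3.63 FPKM in MDA-MB-231, a ratio of 0.793, and at 1.04 and 3.32 FPKM in HMLER, a ratio of 3.20. The difference between the lines was not tested, as each had 1 value per condition, and the HMLER values cover only transcripts chosen for being higher. APH1A and NUMB have several overlapping transcripts, among which the division of reads is an estimate.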

How the results depend on the processing

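The count of 4 members more than 2-fold higher in MDA-MB-231 moved to 1 (JAG1) with 1 FPKM required in both libraries, with 5 FPKM in at least 1, and with the Cuffdiff bounds apart, an alternative chosen after seeing the data. It was 3 with a pseudocount of 1 FPKM, 5 with transcripts summed and 6 with no filter. No member was more than 2-fold lower under any alternative. For the other pathway genes the 7 became 14 with no filter, 4 with 1 FPKM in both or 5 FPKM in at least 1, and 1 with bounds apart (HES7). The 0 lower became 1 with no filter (MAML3) and 1 with transcripts summed (PSEN2), genes named after their values were seen. For all symbols, 1428 higher became 5375 with no filter, 510 with 1 FPKM in both, 467 with 5 FPKM and 1350 with transcripts summed. Over the same 12396 symbols as the 1428, it was 892 with the pseudocount and 131 with bounds apart. The 726 lower became 1267 with no filter and 47 with bounds apart. Of the 2 members listed in HMLER, 1 (HEY1) was left with 5 FPKM or with 1 FPKM in both conditions, and 0 with the pseudocount. Stricter filters keep fewer genes by construction, and the cause of the other shifts was not tested. Of the members' log2 differences, HES1 alone changed sign (−0.03 to 0.10, DAC values divided by the median ratio). Of 30 alternative values of these differences, 9 were labelled as outside the member's counting interval on that scale. These 9 came with a pseudocount of 0.1 FPKM or with DAC values divided by the median ratio. For JAG2 the label is not informative, as its interval comes from summed reads and leaves out its own main value, 0.14. The largest shift of JAG2, to 0.72 with transcripts summed, was thus not among the 9. NOTCH4 has no counting interval and was judged by a fixed margin. With DAC values divided by the median ratio, NOTCH1 went from −0.22 to −0.10 and NOTCH2 from −0.37 to −0.24. No paired analysis was possible because MDA-MB-231 had 1 library and HMLER 1 merged value per condition, and for the same reason no replicate could be left out. Ratios resting on 6 untreated reads (DLL1, DLL4) are limited by depth.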
